A study of Mus musculus with 419 samples.

Results

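The 9 genes described here make, clear and read the hormonal form of vitamin D, or move phosphate and calcium across kidney epithelium. They are Cyp27b1, Cyp24a1, Vdr, Slc34a1, Slc34a2, Slc34a3, Kl, Trpv5 and Calb1, chosen by symbol, and all 9 were found among the 55487 genes of the count table. Poly(A) RNA was counted in 419 libraries covering 19 tissues, all from mice of the CBA/CaJ strain, in a model of REDs, the shortage of energy that is named for athletes. Mice with enough energy are called Control and those short of it Deficient, and both were sampled in females and males at zeitgeber time 5 h (ZT05) and 17 h (ZT17). In kidney each of the 8 groups of sex, treatment and time held 3 libraries, 24 in all. All groups share the CBA/CaJ strain; the labels name no genetic change, give no age and do not say how energy was restricted. Count columns carry an animal number, and it differs between the 3 replicates of each kidney group. Nothing else states that replicates are separate animals, so p-values measure the spread between these libraries. Kidney females and kidney males came from separate sets of animal numbers, so sex and set of animals cannot be told apart.

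CYP27B1 is the 1-alpha-hydroxylase of the proximal tubule that makes calcitriol, the hormonal form of vitamin D, and CYP24A1 is the 24-hydroxylase that breaks it down. The vitamin D receptor VDR is the nuclear receptor for calcitriol. Parathyroid hormone and low phosphate favour CYP27B1, while the bone hormone FGF23, acting through its co-receptor Klotho (encoded by Kl), lowers CYP27B1, raises CYP24A1 and withdraws the sodium-phosphate cotransporters from the tubule brush border. SLC34A1 and SLC34A3 are the renal cotransporters, and SLC34A2 is the form of lung and intestine. Further along the nephron, calcium enters through the channel TRPV5 and is carried by the binding protein calbindin-D28k (CALB1).

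Cyp27b1 was higher and Kl lower in Deficient kidneys of both sexes, so the bases just before their start sites are shown. Cyp27b1 lies on chromosome 10 from 127048250 to 127053006 (plus strand, GRCm38, GENCODE M21) and Kl on chromosome 5 from 150952607 to 150993817 (plus strand). RefSeq (GRCm38.p6) held a promoter entry for 7 of the 9 members. The 250 bases before the RefSeq start are printed 5′ to 3′ for chr10:127047996-127048245 and chr5:150952357-150952606. Capitals mark matches, on either strand, to TATATA (the TATA box), to CCAAT (the CCAAT box) or to GGGCGG (the GC box).
Cyp27b1: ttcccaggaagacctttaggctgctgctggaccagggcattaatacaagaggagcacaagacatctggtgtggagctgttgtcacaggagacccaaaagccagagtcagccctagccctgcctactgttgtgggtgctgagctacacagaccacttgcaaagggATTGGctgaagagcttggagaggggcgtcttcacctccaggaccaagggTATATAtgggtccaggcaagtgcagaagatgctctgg
Kl: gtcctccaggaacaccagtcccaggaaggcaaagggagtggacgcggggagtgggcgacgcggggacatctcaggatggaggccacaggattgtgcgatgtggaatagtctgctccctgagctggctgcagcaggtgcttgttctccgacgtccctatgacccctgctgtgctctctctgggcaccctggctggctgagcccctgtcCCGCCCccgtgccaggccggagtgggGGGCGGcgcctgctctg

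The Cyp27b1 window held CCAAT on the reverse strand, starting 86 bases before the start, and TATATA starting 37 bases before it. The Kl window held GGGCGG starting 43 bases (reverse strand) and 17 bases before the start. Of 32851 promoter windows of this length, 33.8% held CCAAT, 5.25% held TATATA and 32.7% held GGGCGG. The other 4 of the 7 motifs searched (TATAAA, the E-box CACGTG, the cAMP response element TGACGTCA and the direct repeat bound by VDR) matched neither window on either strand. These are matches of letters and say nothing of which factors bind.

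Kidney was the main site of most of these genes. In Control libraries, ranked by the median CPM (the count scaled to the library total), kidney held the highest level of 7 of the 9. The exceptions were Slc34a2, with 1605 CPM in lung and 7.18 in kidney, and Cyp27b1, with 6.77 CPM in pituitary and 6.72 in kidney. Their pituitary range of 3.02 to 12.9 CPM and kidney range of 2.86 to 11.9 CPM overlapped almost wholly, and their order was the reverse when mitochondrially encoded genes were left out of the totals.

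Slc34a1, the bulk phosphate cotransporter, had a median of 4093 CPM in kidney (range 3721 to 6354), and its next tissue, testis, had 0.24 CPM. Klotho mRNA followed with 653 CPM in kidney and 18.5 CPM in pituitary, with no overlap between those tissues. Cyp24a1 had 43.1 CPM in kidney against 0.713 in testis and 0.558 in pituitary, whose ranges overlapped. Slc34a3 had 53.2 CPM in kidney and its next median was 0.284 CPM in testis, and it was at 0 in 350 of all 419 libraries.

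Vdr had 310 CPM in kidney, followed by ovary (22.6), adrenal gland (16.7), lung (12.1) and testis (10.5), and the ranges of adrenal gland, lung and testis overlapped. Trpv5 was seen in kidney (24.1 CPM) and uterus (5.04 CPM, range 0.289 to 8.39), was low in testis (0.391 CPM, range 0.203 to 0.599) and was at 0 in every library of 12 tissues. Calb1 ran from 399 CPM in kidney to 272 in ovary and 77.1 in pituitary, and kidney (156 to 827 CPM) and ovary (17.03 to 578 CPM) overlapped. Slc34a2 after lung was ordered ovary (105 CPM), uterus (76.8) and testis (53.8), whose ranges overlapped, and then kidney.

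**Figure D1:**
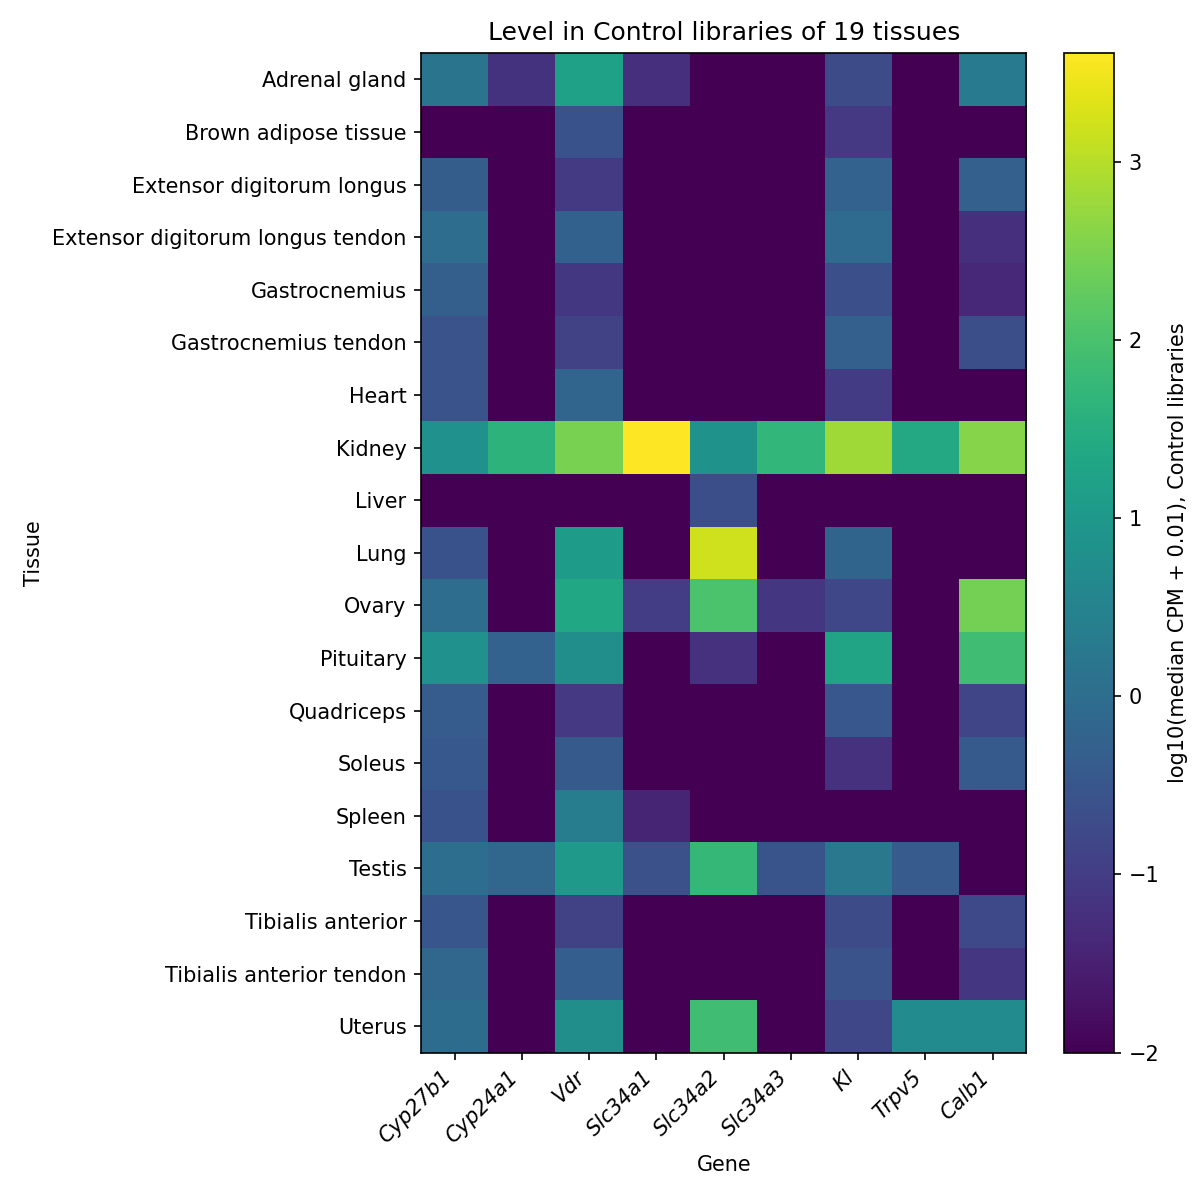
Median level of each gene (columns) over the Control libraries of 19 tissues (rows), as log10 of CPM plus 0.01; dark cells are at or near 0. The kidney row is above 0 on this scale in all 9 columns, lung stands out for Slc34a2, and ovary and pituitary for Calb1.

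To set genes against each other, kidney levels were divided by exon length. Per kilobase of exon, Slc34a1 led with a Control median of 762 CPM in females and 1312 CPM in males. Calb1 (128 and 54.5), Kl (67.7 and 80.4), Vdr (46.0 and 67.8), Slc34a3 (30.3 and 17.6) and Cyp24a1 (12.9 in both) lay between. Slc34a2 (2.48 and 0.547 CPM per kilobase) and Cyp27b1 (1.26 and 4.19) were the lowest.

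Deficient kidneys held more Cyp27b1 mRNA and less mRNA of a phosphate transporter and of the FGF23 co-receptor, in both sexes. Whether the male falls were called depended on how libraries were scaled, as given below. Levels from here on are CPM on library sizes scaled by TMM, edgeR's correction for RNA composition, and a gene is called changed where edgeR's quasi-likelihood test gave a Benjamini-Hochberg adjusted p under 0.05 over all 16797 genes tested in kidney. Over both times, 4 of 9 members were called in females (1 up, 3 down), where 9.43% of all genes were called (4.76% up, 4.67% down). In males 4 of 9 were called (1 up, 3 down), where 40.8% of all genes were called (20.1% up, 20.8% down), so the male share is near its background. In a bulk library, fewer cells of a type and less RNA per cell cannot be told apart.

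**Figure D2:**
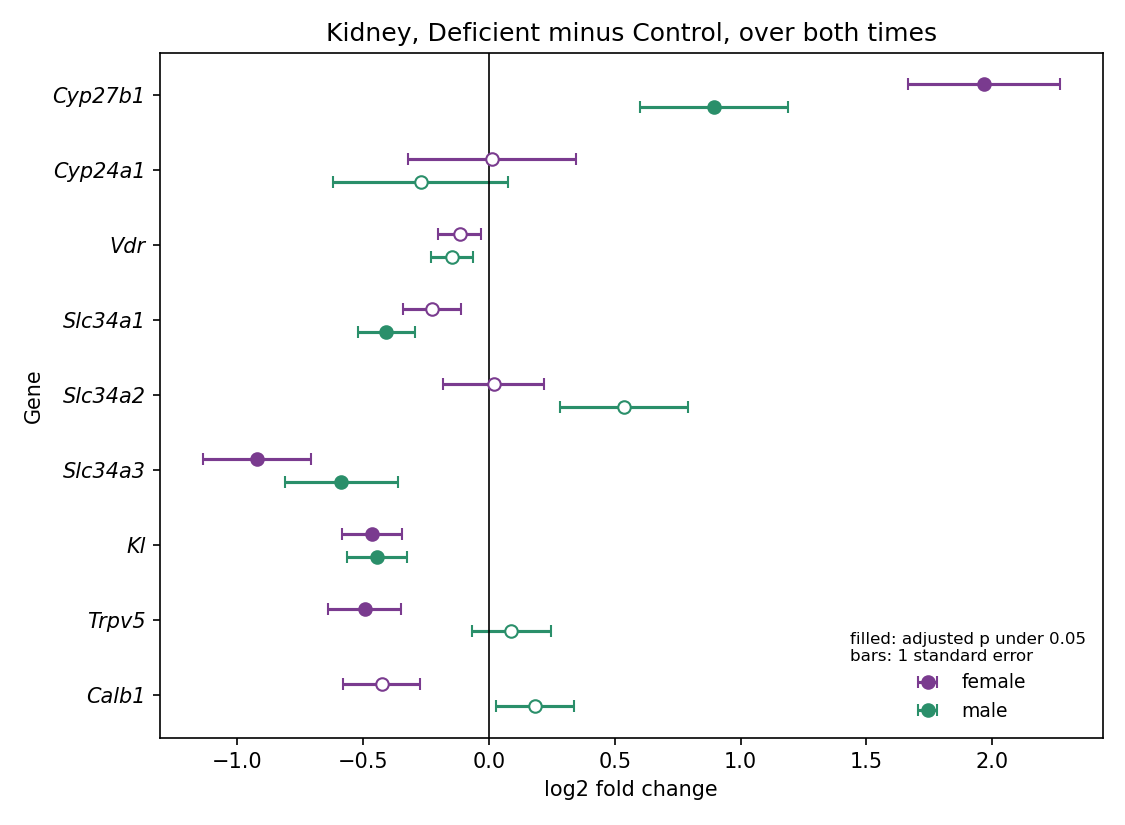
Log2 fold change of each gene, Deficient minus Control, in female and male kidney over both times (6 against 6 libraries); bars are 1 standard error and filled points have an adjusted p under 0.05. Cyp27b1 lies to the right and Slc34a3 and Kl to the left in both sexes. With library totals in place of TMM the male Vdr point moves to the right of 0. Under that scaling the male Slc34a1, Slc34a3 and Kl falls are not called, and male Slc34a2, Trpv5 and Calb1 are called up.

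Library scaling bears on the male values. TMM factors were 0.809 to 0.943 in Control males and 0.952 to 1.06 in Deficient males, whereas those of females overlapped (1.06 to 1.14 and 0.921 to 1.21). With library totals and no TMM factor, the median response of all genes moved from 0.03 to 0.28 in males and stayed near 0 in females. Under that scaling the male calls were 4 up (Cyp27b1, Slc34a2, Trpv5, Calb1) and 0 down, in place of 1 up and 3 down. Relative to that median, Slc34a1 was at -0.44, Slc34a3 at -0.62 and Kl at -0.47, against -0.43, -0.61 and -0.47 under TMM. A change of scaling moves all genes by about the same amount, so this closeness cannot tell which scaling is right. With library totals their adjusted p were 0.271, 0.19 and 0.155 (edgeR).

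Cyp27b1 gave the largest response of the members in each sex. In Control females it was at 3.04, 2.98 and 3.43 CPM at ZT05 and 2.697, 3.81 and 4.99 CPM at ZT17. Deficient females had 2.81, 22.1 and 13.7 CPM at ZT05 and 12.5, 18.8 and 11.2 CPM at ZT17. Replicate 1 of the Deficient females at ZT05 thus sat at the Control level, while the other 5 Deficient libraries all lay above every Control library. The log2 fold change was 1.97 ± 0.30 (SE; adjusted p = 0.000225), and 2.20 without that replicate. The call held with each of the 24 kidney libraries left out in turn.

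In Control males Cyp27b1 was at 12.2, 9.88 and 11.2 CPM at ZT05 and 10.3, 14.8 and 10.1 CPM at ZT17. Deficient males had 15.9, 30.3 and 17.7 CPM at ZT05 and 24.2, 15.5 and 23.6 CPM at ZT17. All 6 Deficient libraries lay above all 6 Control libraries, and the fold change was 0.89 ± 0.29 (adjusted p = 0.0187). Without replicate 2 of the Deficient males at ZT05 it was 0.72 (adjusted p = 0.068). Control males lay above Control females throughout, with means of 11.4 and 3.49 CPM, and the female response exceeded the male one by 1.07 ± 0.42 on the log2 scale (adjusted p = 0.0865, not called). Without replicate 1 of the Deficient females at ZT05 that difference was 1.31 (adjusted p = 0.00472). This was the 1 exclusion of 24 that gave a call. Over all 24 the difference ran from 0.74 to 1.31, with edgeR adjusted p up to 0.195.

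Cyp24a1, the catabolic partner, was not called over both times, at 0.01 ± 0.33 in females (adjusted p = 0.987). In males it was at -0.27 ± 0.35 (adjusted p = 0.561). Its response depended on the time of day. In Control females it was at 133, 51.3 and 134 CPM at ZT05 and at 36.4, 24.5 and 40.9 CPM at ZT17. In Deficient females the order was the opposite, with 15.4, 52.1 and 38.6 CPM at ZT05 and 94.0, 97.0 and 119 CPM at ZT17.

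Males showed the same crossing. Control males had 54.3, 39.7 and 82.0 CPM of Cyp24a1 at ZT05 and 52.4, 20.98 and 10.5 CPM at ZT17, with overlap between the times. Deficient males had 7.06, 25.95 and 13.7 CPM at ZT05 and 52.8, 74.5 and 88.4 CPM at ZT17, with none. At ZT05 the Deficient level was below the Control level at -1.58 ± 0.48 for females (adjusted p = 0.0543) and -1.90 ± 0.50 for males (adjusted p = 0.0127). At ZT17 it was above it at 1.61 ± 0.48 for females (adjusted p = 0.0574) and 1.36 ± 0.50 for males (adjusted p = 0.0412). The male ZT17 value lost its call without 4 single libraries, Control replicates 2 (1.19) and 3 (0.96) and Deficient replicates 2 (1.37) and 3 (1.19) of that time. The male ZT05 value lost it without Control replicate 3 (-1.58) or Deficient replicate 1 (-1.56).

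The difference between the responses at ZT17 and ZT05, averaged over sexes, was 3.23 ± 0.49 for Cyp24a1 (adjusted p = 0.00114). Cyp24a1 was the single member of 9 called in this contrast, in which 6.07% of all genes were called (2.74% up, 3.33% down). The value lay between 3.03 and 3.65 with each kidney library left out in turn and was called each time. Cyp27b1 had no such difference that could be detected (-0.11 ± 0.42, adjusted p = 0.908).

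**Figure D3:**
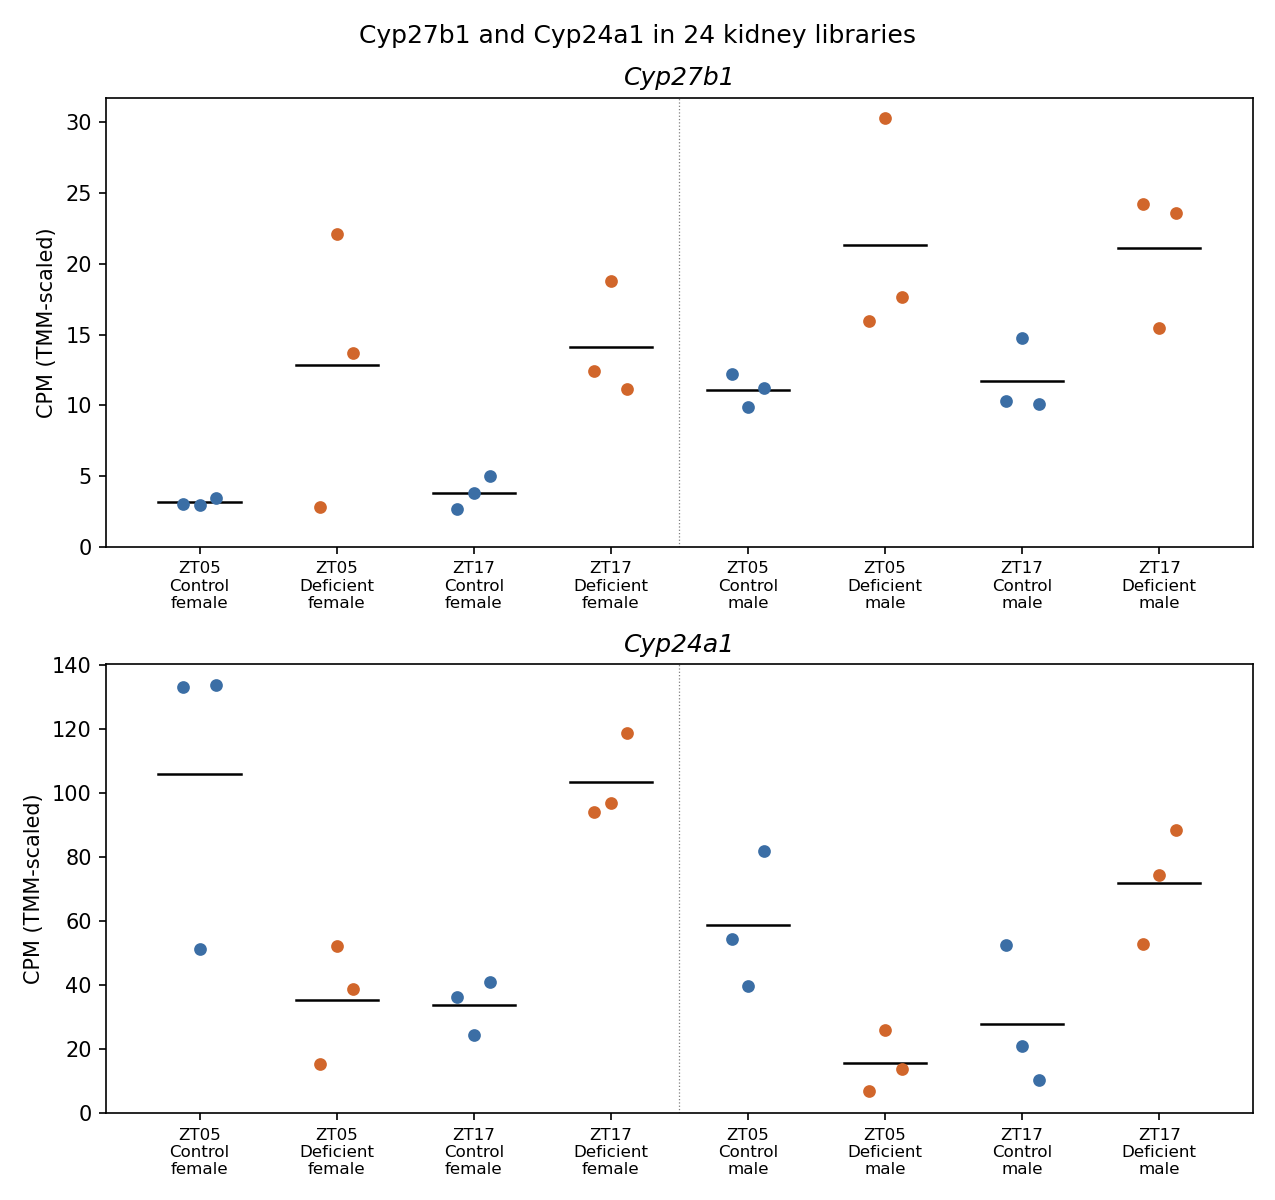
CPM of Cyp27b1 (top) and Cyp24a1 (bottom) in each of the 24 kidney libraries by sex, time and treatment; each point is a library and lines are means of 3. Cyp27b1 is higher in Deficient groups at both times, while the Cyp24a1 means are lower at ZT17 than at ZT05 in Control groups and higher in Deficient groups (orange, Deficient; blue, Control).

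The counts of both enzymes within a library give a ratio that no scaling changes. At ZT05, Cyp27b1 counts per Cyp24a1 count ran from 0.0228 to 0.0582 in Control females and from 0.182 to 0.424 in Deficient females. In males at ZT05 the ratio ran from 0.137 to 0.249 in Control and from 1.17 to 2.26 in Deficient libraries. At ZT17 the groups overlapped in both sexes, at 0.0742 to 0.156 against 0.0941 to 0.194 in females and 0.197 to 0.965 against 0.208 to 0.458 in males.

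Cyp24a1 (chromosome 2, 170482708 to 170497145, minus strand) overlaps Pfdn4 on the opposite strand by 718 bases of gene span. Exons and introns were not told apart in this measure. The labels name a stranded kit but not the strand setting of the counting. In extensor digitorum longus muscle Cyp24a1 was at 0 in 24 of 24 libraries while Pfdn4 had 82 to 364 counts. By the same measure of gene span, Slc34a1 shares 545 bases with Pfn3 and Slc34a2 shares 1502 bases with Gm17182, both also on the opposite strand.

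Vdr was not called over both times, at -0.12 ± 0.08 (adjusted p = 0.408) in females and -0.15 ± 0.08 (adjusted p = 0.165) in males. Control females had 286, 244 and 364 CPM at ZT05, all above the Deficient values of 211, 195 and 234 CPM. At ZT17 the order was the other way, with 252, 254 and 266 CPM in Control and 286, 290 and 341 CPM in Deficient females. That ZT17 difference was not called (0.25 ± 0.12, edgeR adjusted p = 0.234). The difference between the Vdr responses at both times, averaged over sexes, was not called either (0.28 ± 0.12, edgeR adjusted p = 0.154). The female ZT05 difference was -0.48 ± 0.12 (adjusted p = 0.0209), but it lost its call without Control replicate 1 (-0.51) or 3 (-0.32) or Deficient replicate 2 (-0.42) of that group.

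Taken time by time, 5 of the 9 members were called in females at ZT05, Cyp27b1 up and Vdr, Slc34a3, Kl and Calb1 down, where 5.64% of all genes were called (2.42% up, 3.21% down). At ZT17 Cyp27b1 alone was called (4.45% of all genes, 2.38% up and 2.07% down). In males Cyp24a1, Slc34a1 and Slc34a3 were called down at ZT05 (18.3% of all genes, 8.07% up and 10.3% down). The Slc34a1 call at ZT05 was lost in 18 of 24 single exclusions (-0.40 to -0.52). At ZT17 Cyp24a1 alone was called, up (31.7% of all genes, 14.7% up and 17.1% down).

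Male kidneys held Vdr at 326 to 382 CPM in Control and 320 to 362 CPM in Deficient libraries at ZT05. At ZT17 the Control males (384 to 419 CPM) lay above the Deficient males (332 to 355 CPM), with a fold change that was not called. With library totals in place of TMM the male response changed sign, to 0.11 over both times.

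Slc34a3, the renal cotransporter whose loss in people causes phosphate wasting with high calcitriol, was lower in Deficient kidneys of both sexes. Control females had 92.9, 68.0 and 82.1 CPM at ZT05 and 74.6, 60.6 and 65.1 CPM at ZT17. Deficient females had 37.6, 23.4 and 40.3 CPM at ZT05 and 36.5, 67.0 and 30.2 CPM at ZT17. At ZT05 the groups did not overlap, and at ZT17 replicate 2 of the Deficient females lay among the Control values. The fold change was -0.92 ± 0.21 (adjusted p = 0.00908), called with each kidney library left out in turn.

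In Control males Slc34a3 was at 44.0, 39.2 and 45.0 CPM at ZT05 and 33.9, 14.3 and 44.6 CPM at ZT17. Deficient males had 23.9, 12.9 and 27.1 CPM at ZT05 and 27.6, 27.6 and 28.1 CPM at ZT17. The male groups were apart at ZT05 and overlapped at ZT17. The fold change was -0.59 ± 0.22 (adjusted p = 0.0403), close to the threshold: 11 of the 24 single exclusions ended the call, with values between -0.41 and -0.61 and adjusted p between 0.052 and 0.154. Those 11 were all male libraries but Control replicate 2 of ZT17 and Deficient replicates 1 and 3 of ZT05, plus the female Control replicate 2 and Deficient replicate 3 of ZT05. With library totals in place of TMM the male value was -0.34 and not called (edgeR adjusted p = 0.19).

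Slc34a1 was called in males. Control males had 6744, 5893 and 6538 CPM at ZT05 and 6381, 4840 and 5399 CPM at ZT17, against 4614, 4286 and 5040 CPM and 4302, 3706 and 5003 CPM in Deficient males. The groups were apart at ZT05 and overlapped at ZT17, and the fold change was -0.41 ± 0.11 (adjusted p = 0.00698). In females it was -0.23 ± 0.11 (adjusted p = 0.217), with 3280 to 4032 CPM in Control and 2457 to 3892 CPM in Deficient libraries. The difference between the sexes was 0.18 ± 0.16 (adjusted p = 0.483).

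Slc34a2 is scarce in kidney, with 21 to 58 counts per Control male library. It was at 9.22 to 18.7 CPM in Control females and 1.96 to 5.35 CPM in Control males, which did not overlap. Its response was 0.02 ± 0.20 for females (adjusted p = 0.971) and 0.54 ± 0.25 for males (adjusted p = 0.0948).

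On TMM-scaled libraries Kl was called lower in both sexes. Control females had 664, 501 and 714 CPM at ZT05 and 559, 600 and 707 CPM at ZT17, and Deficient females 383, 303 and 441 CPM and 524, 648 and 463 CPM. Control males had 687, 884 and 743 CPM at ZT05 and 881, 753 and 747 CPM at ZT17, and Deficient males 644, 455 and 591 CPM and 611, 511 and 643 CPM. In males all 6 Deficient libraries lay below all 6 Control libraries, and in females this held at ZT05 but not at ZT17.

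The fold change of Kl was -0.46 ± 0.12 for females (adjusted p = 0.0172) and -0.44 ± 0.12 for males (adjusted p = 0.00541), and the female minus male difference was -0.02, with an interval of 2 standard errors from -0.36 to 0.32. In females the call was lost without Control replicate 3 of ZT17 (-0.41), Deficient replicate 2 of ZT05 (-0.40) or Deficient replicate 3 of ZT17 (-0.41). In males it held with each library left out, but not with library totals in place of TMM (-0.19, edgeR adjusted p = 0.155).

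The calcium channel Trpv5 was called lower in Deficient females. It was at 36.9, 28.0 and 34.3 CPM at ZT05 and 48.9, 42.7 and 50.2 CPM at ZT17 in Control females. Deficient females had 28.1, 15.6 and 22.1 CPM at ZT05 and 45.8, 39.6 and 22.6 CPM at ZT17. These overlapped at both times. The fold change was -0.49 ± 0.15 (adjusted p = 0.0348), and 7 of 24 single exclusions ended the call, with values between -0.37 and -0.50. They were female Control replicates 1 and 3 of both times, Deficient replicates 2 and 3 of ZT05 and Deficient replicate 3 of ZT17. Males had 14.5 to 20.2 CPM in Control and 13.0 to 23.5 CPM in Deficient libraries, with a response of 0.09 ± 0.16 (adjusted p = 0.677). At ZT05 the Deficient males (18.7 to 23.5 CPM) lay just above the Control males (14.8 to 18.6 CPM). That difference was not called (0.37 ± 0.22, edgeR adjusted p = 0.245), and at ZT17 the male groups overlapped.

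Calb1 in females was 525, 439 and 760 CPM in Control and 340, 293 and 379 CPM in Deficient libraries at ZT05, without overlap. At ZT17 it was 639, 602 and 777 CPM in Control and 732, 705 and 472 CPM in Deficient females, with overlap. Over both times the fold change was -0.43 ± 0.15 (adjusted p = 0.0829), while that at ZT05 was -0.77 ± 0.22 (adjusted p = 0.0407). The ZT05 call was lost in 6 of 24 single exclusions, without Control replicate 1 or 3 of ZT05, Control replicate 1 of ZT17 or any of the 3 Deficient replicates of ZT05, with values between -0.52 and -0.87. In males Calb1 ran from 193 to 367 CPM in Control and from 244 to 388 CPM in Deficient libraries (0.18 ± 0.15, adjusted p = 0.356).

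No member of the 9 was called for a difference between the sexes (edgeR; 13.9% of all genes were, 8.11% up and 5.83% down), though 3 had an unadjusted p under 0.05 and DESeq2 called 1. Those 3 were Calb1 (-0.61 ± 0.22, adjusted p = 0.063), Trpv5 (-0.58 ± 0.21, adjusted p = 0.0706) and Cyp27b1. With library totals Calb1 (-0.87, adjusted p = 0.005) and Trpv5 (-0.86, adjusted p = 0.00245) were called and Cyp27b1 was not (0.85, adjusted p = 0.175). Under that scaling the median difference of all genes moved from -0.02 to -0.27, a shift that these values include.

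**Figure D4:**
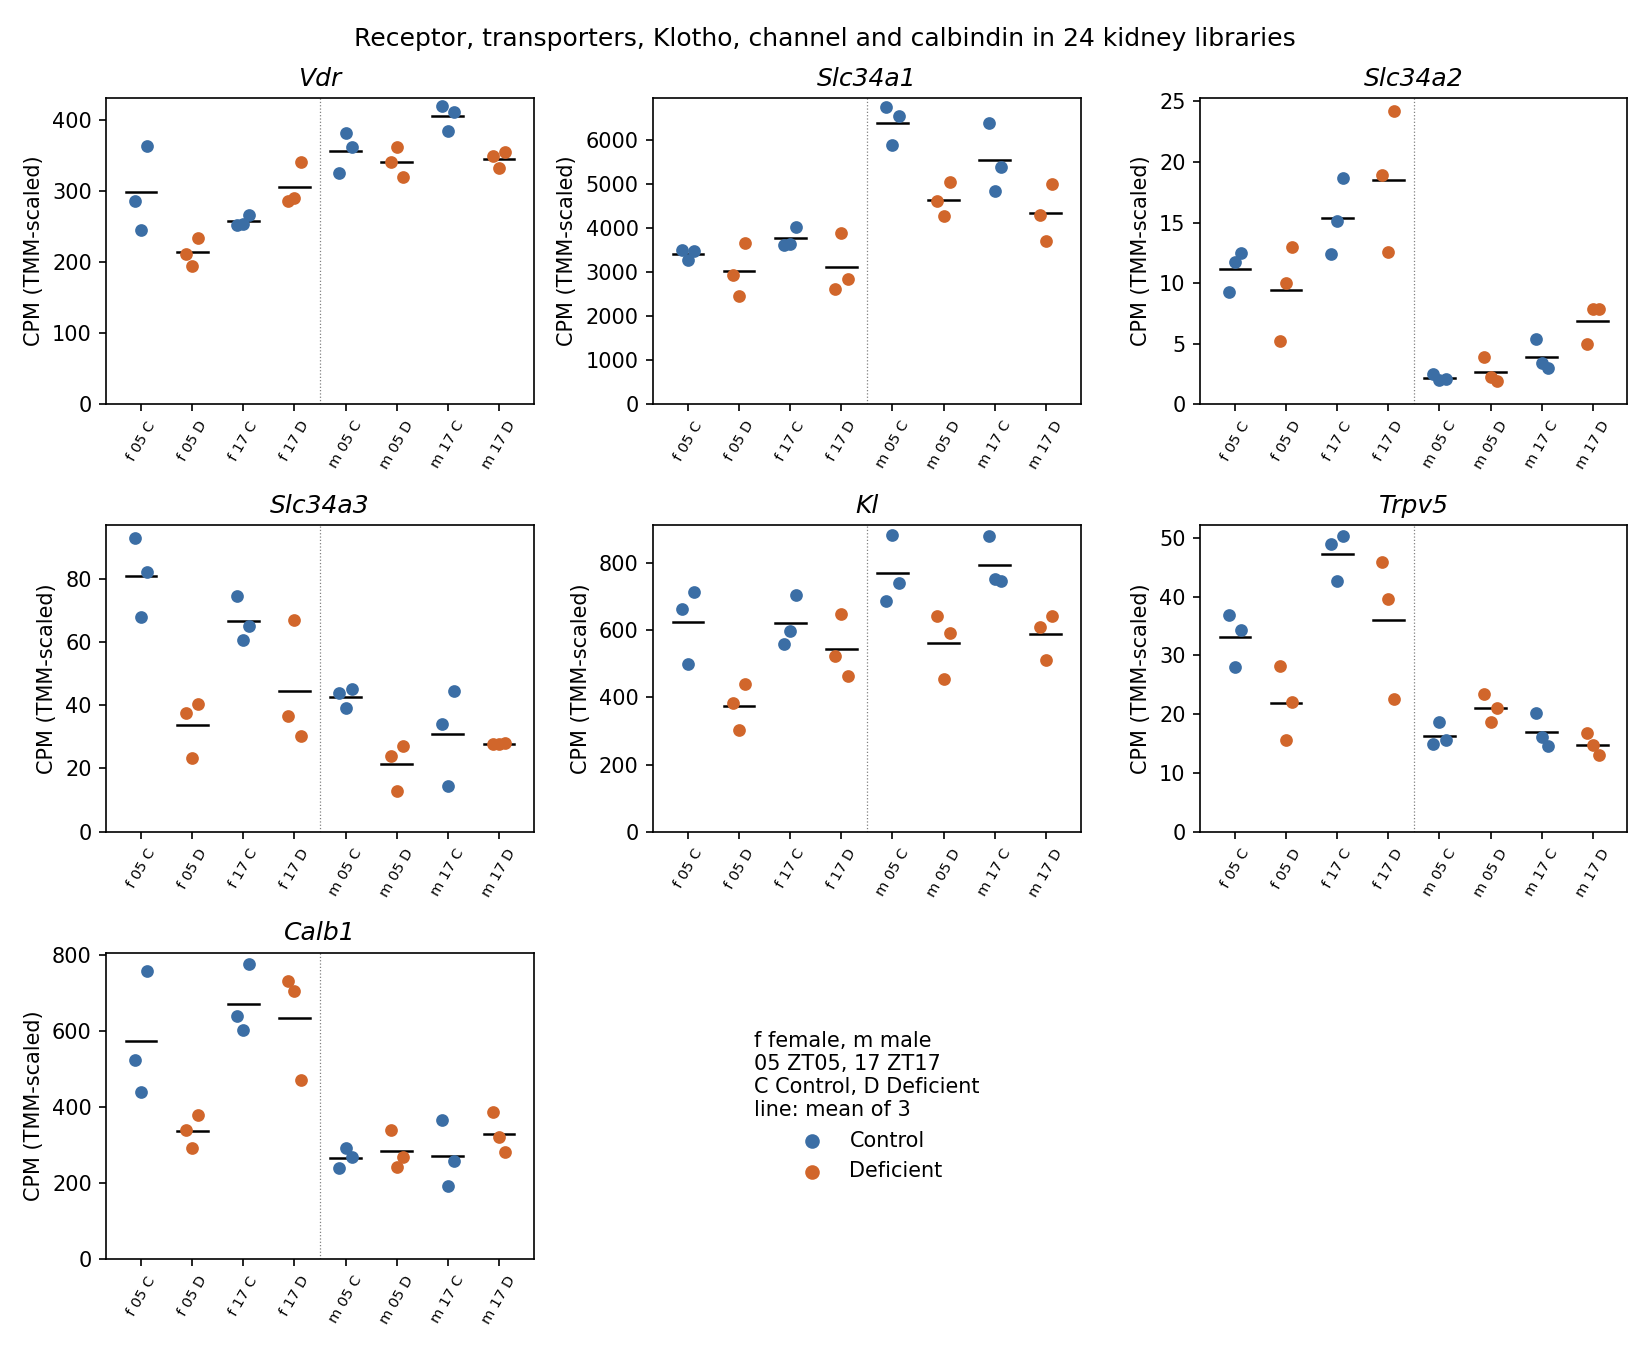
CPM of the other 7 genes in each of the 24 kidney libraries (f female, m male, 05 and 17 the zeitgeber times, C Control, D Deficient); each point is a library and lines are means of 3. Deficient points lie below Control points at ZT05 for Slc34a3 and Kl in both sexes, for Vdr and Calb1 in females and for Slc34a1 in males. Male Trpv5 points at ZT05 lie the other way, with Deficient just above Control. The share of all genes whose points are apart in this way is not given here.

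Control kidneys differed between the times in 1 member, Cyp24a1, which was lower at ZT17 (-1.36 ± 0.35, adjusted p = 0.0109; 13.7% of all genes were called, 6.22% up and 7.5% down). In Deficient kidneys 3 members were called, all higher at ZT17 (7.56% of all genes were called, 3.39% up and 4.17% down). Cyp24a1 rose by 1.87 ± 0.35 (adjusted p = 0.00248) and Slc34a2 by 1.17 ± 0.22 (adjusted p = 0.00246), each called with every kidney library left out in turn.

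Within Control females Cyp24a1 was lower at ZT17 (-1.65 ± 0.48, adjusted p = 0.0408) and was the single member called, where 6.75% of all genes were (3.11% up, 3.64% down). Within Control males it was at -1.07 ± 0.50 (adjusted p = 0.253), and none of the 9 was called by edgeR, with 2 at an unadjusted p under 0.05 (3.3% of all genes, 1.77% up and 1.53% down). Within Deficient females Cyp24a1 was at 1.54 ± 0.48 (adjusted p = 0.0744), and Vdr (0.52 ± 0.12) and Calb1 (0.92 ± 0.22) were called up, where 3.27% of all genes were called (1.83% up, 1.43% down). Within Deficient males Cyp24a1 (2.19 ± 0.51, adjusted p = 0.0282) and Slc34a2 (1.38 ± 0.33) were called up, where 1.53% of all genes were called (0.554% up, 0.976% down).

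Slc34a2 in Deficient females went from 5.24, 9.98 and 13.0 CPM at ZT05 to 18.9, 12.5 and 24.2 CPM at ZT17, with overlap. In Deficient males it went from 3.87, 2.24 and 1.93 CPM to 4.98, 7.84 and 7.87 CPM, without overlap. In Control kidneys the Slc34a2 difference was 0.65 ± 0.24 (adjusted p = 0.072), and the responses at both times did not differ by a called amount (0.53 ± 0.32, adjusted p = 0.352). Calb1 rose by 0.57 ± 0.15 in Deficient kidneys (adjusted p = 0.0273), a call lost in 7 of 24 single exclusions (0.50 to 0.57). They were female Deficient replicates 1 and 2 of both times, male Deficient replicates 2 and 3 of ZT05 and male Deficient replicate 1 of ZT17.

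**Figure D5:**
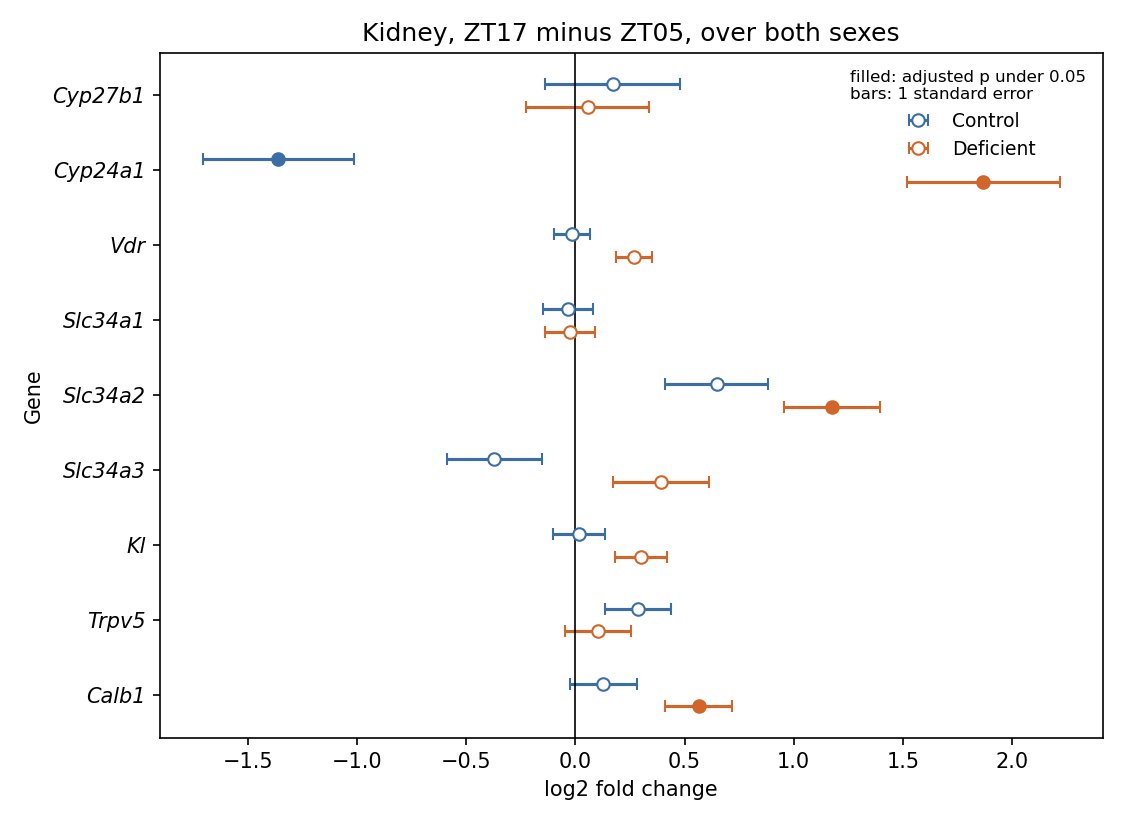
Log2 difference of ZT17 minus ZT05 in Control and in Deficient kidney, over both sexes, for each gene; bars are 1 standard error and filled points have an adjusted p under 0.05. Cyp24a1 is the gene whose Control and Deficient points lie on opposite sides of 0 with both filled.

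Markers of nephron segments and of other kidney cells were read beside these genes, against the 4.76% of all genes that rose and 4.67% that fell in females and the 20.1% and 20.8% in males. Of 7 early proximal tubule markers, 0 rose and 2 fell in females and 3 rose and 2 fell in males. Their summed level overlapped between treatments (4439 to 6702 CPM in Control and 3304 to 5853 in Deficient females, 5179 to 6005 and 4739 to 5652 in males). Of 7 late proximal tubule markers, 3 fell in females and 5 in males. Their female sums overlapped, at 3188 to 3739 CPM in Control and 3231 to 3676 CPM in Deficient libraries. The male sum was 5458 to 7071 CPM in Control and 3846 to 5534 CPM in Deficient libraries. Of 6 thick ascending limb markers 1 fell in each sex. Of 6 principal cell and 5 endothelial markers, 1 of each list fell in females and 1 of each rose in males. Of 5 connecting tubule markers, 1 fell in each sex, and of 5 distal convoluted tubule markers 2 rose in males and none changed in females by the test. Of 6 macrophage and leukocyte markers 4 fell in males, and 3 of 5 podocyte and 3 of 6 intercalated cell markers rose in males, while no marker of these 3 lists was called in females. Of 4 stroma markers, 0 rose and 2 fell in females (median of -0.85) and 1 rose and 2 fell in males (median of -0.43). The part of these markers in the responses of the 9 genes was not tested. Adrenal cortex markers summed to at most 98.2 CPM in a kidney library.

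The other genes of these pathways are read against all kidney genes, of which 9.43% were called in females (4.76% up, 4.67% down) and 40.8% in males (20.1% up, 20.8% down). Of 13 tested genes of vitamin D synthesis, binding and uptake, 2 rose and 2 fell in females and 2 rose and 3 fell in males, the male 5 of 13 being near that background (medians of -0.06 and -0.19 on the log2 scale, against 0.01 and 0.03 for all genes). Cyp27a1, a mitochondrial sterol hydroxylase that can 25-hydroxylate vitamin D, rose by 0.68 ± 0.09 (females, adjusted p = 6.98e-05) and 0.35 ± 0.09 (males, adjusted p = 0.00532). Gc, the vitamin D binding protein, rose by 0.85 ± 0.19 in females and 2.37 ± 0.27 in males. In females the endocytic receptors that reclaim filtered vitamin D with its binding protein fell, namely megalin (Lrp2, -0.53 ± 0.14) and cubilin (Cubn, -0.42 ± 0.11). In males the called falls were Pdia3 (-0.58), Dhcr7 (-0.43) and Rxrb (-0.26), the last a heterodimer partner of VDR.

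Among 15 tested genes of parathyroid hormone, FGF23 and calcium sensing, 0 rose and 2 fell in females and 3 rose and 3 fell in males (medians of -0.01 and 0.10). These 2 and 6 of 15 are near the 9.43% and 40.8% of all genes called. Pth1r, the receptor of parathyroid hormone, fell in both sexes, at -0.67 ± 0.12 (females, adjusted p = 0.000762) and -0.87 ± 0.12 (males, adjusted p = 9.76e-06). Gnas, which encodes the stimulatory G protein that this receptor uses, fell in females (-0.22 ± 0.07) and males (-0.55 ± 0.07). In males Gna11 also fell (-0.32), and Sgk1 (1.03), Fgfr2 (0.56) and Fgfr3 (0.56) rose.

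Of 10 tested genes of phosphate transport and its scaffolds, 0 rose and 1 fell in females and 1 rose and 5 fell in males (medians of -0.02 and -0.25). The female 1 of 10 is near the 9.43% of all genes called, and in males 20.8% of all genes fell. Pdzk1, a scaffold that binds SLC34A1 at the brush border, fell in females (-0.53 ± 0.12) and males (-0.55 ± 0.12). In males Slc9a3r1, which encodes the scaffold NHERF1 (-0.60 ± 0.08), and Ezr, which encodes the membrane linker ezrin (-0.46 ± 0.09), fell as well. Alpl, the tissue-nonspecific alkaline phosphatase, rose by 0.45 ± 0.12 in males.

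Of 24 tested genes of calcium and magnesium transport, 1 rose and 3 fell in females and 5 rose and 4 fell in males (medians of -0.11 and -0.03). The male 9 of 24 is near the 40.8% of all genes called, and in females 9.43% were called. Cldn16 (-0.46), Klk1 (-0.43) and Cldn2 (-0.35) fell in females. Claudin-16 is a paracellular pore protein for divalent cations. In males the magnesium channels Trpm7 (0.85 ± 0.12) and Trpm6 (0.64 ± 0.11) and the thiazide-sensitive cotransporter Slc12a3 (0.58 ± 0.12) rose, and Fxyd2 (-0.53), Cnnm2 (-0.50) and Cldn10 (-0.41) fell.

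Over the 24 kidney libraries, the genes whose log2 CPM was most like that of Cyp27b1 among 9669 searched were Cyp27a1 (Pearson r = 0.846), Tmem252 (0.844) and Grpel2 (0.836). Those most like Cyp24a1 were S1pr3 (0.721), Rfx5 (0.717) and Tbxas1 (0.693). The libraries share the treatment, sex and time groups, so these are descriptions with no test.

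Outside kidney, members were tested wherever they passed the expression filter. In females 10 of 53 pairs of member and tissue were called (8 up, 2 down), where 10.3% of all gene and tissue pairs were called (4.94% up, 5.33% down). In males 1 of 48 pairs was called (down), where 4.02% of all pairs were (2% up, 2.03% down). Without 1 adrenal library 7 female pairs were called, and without 1 library of the tibialis anterior tendon 9 were. No pair of 43 was called for a difference between the sexes (edgeR; 5 at an unadjusted p under 0.05), where 0.257% of all pairs were called (0.111% up, 0.146% down). No pair of 58 was called for a difference between the responses at both times (5 at an unadjusted p under 0.05), where 1.67% were (0.809% up, 0.857% down).

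In uterus the apical transporter and the calcium channel fell and calbindin rose. Slc34a2 was at 124, 91.4 and 71.7 CPM at ZT05 and 143, 28.7 and 48.2 CPM at ZT17 in Control females. Deficient females had 22.6, 7.11 and 33.0 CPM and 32.4, 14.4 and 3.28 CPM. Control replicate 2 of ZT17 lay among the Deficient values, and the fold change was -2.16 ± 0.55 (adjusted p = 0.00783).

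Uterine Trpv5 had 6.02, 4.89 and 6.47 CPM at ZT05 and 9.19, 0.275 and 2.705 CPM at ZT17 in Control females. In Deficient females it had 1.02 CPM in replicate 1 and 0.0589 CPM in replicate 3 of ZT05 and was at 0 in the other 4. The summed counts of Trpv5 were 534 in Control and 23 in Deficient libraries, and the fitted fold change was -6.55 ± 1.25 (adjusted p = 0.00247), a size that depends on how zero counts are handled.

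Uterine Calb1 was at 0.976, 3.46 and 3.30 CPM at ZT05 and 31.8, 6.21 and 8.22 CPM at ZT17 in Control females. Deficient females had 3.75, 15.5 and 4.18 CPM at ZT05 and 76.9, 48.3 and 67.9 CPM at ZT17. The groups did not overlap at either time, and the fold change was 1.82 ± 0.50 (adjusted p = 0.0112). Leaving out all libraries numbered 2 or all numbered 3 raised the adjusted p of Calb1 to 0.0686, while Slc34a2 and Trpv5 stayed called.

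In the uterus 21.2% of all genes rose and 23.8% fell, and markers of several cell types moved with these members. The summed level of 6 epithelial markers was 3493 to 17591 CPM in Control and 896 to 2678 CPM in Deficient uteri. Ltf (-4.93 ± 0.79), Krt8 (-1.67 ± 0.32), Epcam (-1.49 ± 0.19) and Cdh1 (-1.16 ± 0.21) fell, Krt18 was not called (-0.47 ± 0.20) and Foxj1, a marker of ciliated cells, rose (2.10 ± 0.44). Of 6 macrophage and leukocyte markers 0 rose and 5 fell (median of -1.03), with a summed level of 360 to 557 CPM in Control and 123 to 259 CPM in Deficient uteri. Of 5 endothelial markers 4 rose and 0 fell (median of 0.57). The part of these markers in the responses of Slc34a2, Trpv5 and Calb1 was not tested.

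In the adrenal gland 4 members were called up in females: Slc34a1 (7.45 ± 2.07), Kl (5.42 ± 1.46), Calb1 (2.57 ± 0.69) and Vdr (1.18 ± 0.30). In this tissue 2.31% of all genes rose. Replicate 1 of the Deficient females at ZT17 had 437 CPM of Slc34a1. That library held all 36 of 36 kidney tubule markers at a summed level of 2462 CPM, against 29.7 to 245 CPM in the other 23 adrenal libraries. Without it Slc34a1 was 0.22 (adjusted p = 0.965), Kl 0.75 (0.854) and Calb1 0.69 (0.356), while Vdr was 0.56 (adjusted p = 0.0386) and still called. That Vdr call was lost in each fit without 1 replicate number (0.56 to 1.55, edgeR adjusted p of 0.105 to 0.155). The second highest library, replicate 2 of the Control males at ZT05, had 51.0 CPM of Slc34a1 and 34 of the 36 markers.

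Calb1 in the tendon of the tibialis anterior (4.30 ± 1.14, adjusted p = 0.032; 3.06% of all genes rose) rests on replicate 3 of the Deficient females at ZT05, with 20.4 CPM. The median of the 6 Deficient libraries was 0.474 CPM and that of the Control libraries 0.180 CPM. Without it the value was 2.19 (adjusted p = 0.164).

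Extensor digitorum longus was the other tissue in which female Cyp27b1 was called. The 6 Control females lay between 0.297 and 0.456 CPM (10 to 13 counts). Deficient females had 1.03, 1.41 and 1.29 CPM at ZT05 and 0.631, 0.524 and 0.558 CPM at ZT17, all above the Control range. The fold change was 1.17 ± 0.24 (adjusted p = 0.00103; 16% of all genes rose in this tissue). In the 14 other tissues where female Cyp27b1 was tested it ran from -0.44 to 0.82 with no call.

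Ovarian Vdr rose by 0.50 ± 0.14 (adjusted p = 0.0499; 4.64% of all genes rose), from 20.0003 to 28.5 CPM in Control to 23.2 to 48.4 CPM in Deficient libraries, with overlap. That call was lost in each fit without one replicate number (0.45 to 0.54). Female Vdr was above 0 in all 9 tissues outside kidney where it was tested and not called, from 0.09 to 0.96 on the log2 scale, and 2 of these had an unadjusted p under 0.05. Libraries of different tissues share animal numbers, so these 9 values are not independent. In males Vdr was not called in any of 10 such tissues and ran from -0.34 to 2.63.

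In males the single called pair was Kl in the tendon of the gastrocnemius (-2.35 ± 0.72, adjusted p = 0.0466; 4.99% of all genes fell). It rests on 48 counts in 6 Control and 10 counts in 6 Deficient libraries, and it was lost in each fit without one replicate number (-1.43 to -2.78). Between times, Vdr in soleus was called in Control mice (1.15 ± 0.35, adjusted p = 0.0228), 1 of 58 pairs where 4.78% of all pairs were called (2.4% up, 2.39% down, and 9.91% up in soleus). Cyp27b1 in tibialis anterior muscle was called in Deficient mice (-1.44 ± 0.43, adjusted p = 0.0452), 1 of 58 pairs where 1.27% of all pairs were called (0.643% up, 0.623% down, and 3.15% down in this muscle). The soleus call was lost in each fit without one replicate number (0.96 to 1.41), and the tibialis anterior call was not refitted in that way. Cyp27b1 is scarce in that muscle, with a median of 0.31 CPM of the library total in Control libraries (range 0.094 to 0.605).

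Lung and pituitary, which hold the most Slc34a2 and Cyp27b1 outside kidney, gave no called response of these genes. Lung Slc34a2 had a median of 1701 CPM in Control and 1689 CPM in Deficient females, and of 1074 and 990 CPM in males. Pituitary Cyp27b1 had medians of 3.97 and 5.34 CPM in females and 7.47 and 5.91 CPM in males, Control first, with overlapping ranges.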

How the data were processed

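Values are whole-number counts of reads for each gene, as deposited by the authors, and per the labels the RNA was TRIzol-extracted and made into libraries with a stranded poly(A) kit. Per the submitters' processing notes STAR 2.7.10a, cutadapt 4.1, DESeq2 1.34.0 and FastQC 0.11.9 were used, with the genome GRCm38 (mm10); the counting tool, its strand setting and the annotation release are not given in the sources used here. Kidney totals were 16959664 to 47770920 counts in females and 10720023 to 19817521 in males.

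Fits were made tissue by tissue in edgeR 4.0.16 (R 4.3.3): filterByExpr (minimum count 10, minimum total 15), TMM, 1 coefficient for every combination of time, treatment and sex, quasi-likelihood F tests, and Benjamini-Hochberg adjustment over the genes tested, with a threshold of 0.05. Responses are averaged over both times, and time differences over the sexes present. The script was tested on simulated data. Positions came from GENCODE M21.

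The members and gene lists were chosen with earlier results of these data known. List genes named are, per list, sex and direction, up to 3 called genes with the largest change and a mean of at least 1 CPM; likeness was searched over genes with a mean of 8 CPM or more, and predicted genes were skipped. The values of 1 list gene are not reported here. Alternatives were DESeq2 size factors, no filter, a stricter filter (5 CPM in 3 libraries), DESeq2 1.42.0, a replicate term, each sex alone, libraries left out and, chosen after seeing the data, library totals without TMM and the exclusion of 2 single libraries.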

Additional observations from a re-analysis of the deposited data

Results flagged for a closer look

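The response of Cyp24a1 in kidney differed between the times by the test of the difference itself: the response at ZT17 exceeded that at ZT05 by 3.23 ± 0.49 on the log2 scale (edgeR, adjusted p = 0.00114). The Deficient mean was below the Control mean at ZT05 and above it at ZT17 in both sexes, and of these 4 differences the 2 in males were called. Its opposite-strand neighbour Pfdn4 had 121 to 512 counts in the kidney libraries and Cyp24a1 had 113 to 6882. In 6 of the 24 libraries, 3 of them Deficient at ZT05, 2 Control at ZT17 and 1 Control at ZT05, the Cyp24a1 count lay within or below the range of Pfdn4. In extensor digitorum longus Cyp24a1 had 0 counts in all 24 libraries while Pfdn4 had 82 to 364.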

How the results depend on the processing

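Counts of called kidney members moved with single libraries: leaving out each in turn gave 2 to 5 in females, 2 to 4 in males, 0 to 2 for the sex difference, 1 for the time difference, 1 to 2 for time in Control and 2 to 4 for time in Deficient kidneys. With no filter the counts were 3 for the sex difference, 3 for the time difference, 3 for time in Control and 5 for time in Deficient kidneys, with standard errors much smaller than under the filter (0.13 in place of 0.30 for Cyp27b1 in females). The sex difference gave 2 with the stricter filter, 1 with DESeq2 and 2 with library totals, and time in Control gave 2 with DESeq2. Library totals reversed Vdr in males to 0.11 over both times and to 0.093 at ZT17. Outside kidney, female pairs numbered 6 with the stricter filter, 5 with each sex fitted alone and 3 to 5 without a replicate number, and 7 or 9 without the adrenal or the tendon library. Male pairs numbered 0 with the stricter filter, 2 with DESeq2, 0 with library totals and 0 without any replicate number. Time in Control gave 0 with the stricter filter, 4 with DESeq2 and 0 without any replicate number. The cause of these shifts was not tested.

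No pairing of libraries by replicate number was seen on average (mean residual correlation of same-numbered libraries between -0.034 and 0.076 over tissues). Single correlations ran from -0.713 to 0.894. With 3 libraries per group, such a mean cannot exclude pairing. With the replicate block, the sex difference gave 1 member and male pairs outside kidney 0, and in kidney the male responses of Cyp24a1 at ZT17 (1.31, adjusted p = 0.0612) and Slc34a1 at ZT05 (-0.46, adjusted p = 0.0535) were no longer called. Low counts limit Slc34a2 in male kidney and most members outside kidney.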
